A study of Homo sapiens with 26 samples.

Results

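SUMF1 (ENST00000272902) and SUMF2 (ENST00000434526) are the paralogous genes described here, 2 of the 12325 transcripts whose codon reads were deposited. They were picked by transcript identifier because their footprint profiles had already been seen to change with PF-06446846, a small molecule that acts on the human ribosome and stalls it during translation of a limited set of proteins. The contrast behind that choice was 1.5 μM PF-06446846 against vehicle after 60 min in the first ribosome profiling study, so its values are given as a description without a test. All libraries came from Huh7, an established cell line of human liver cancer (hepatocellular carcinoma), grown on 10-cm plates. Fresh medium carried 1.5 μM or 0.3 μM of the compound or vehicle alone (0.5% DMSO, which all groups shared), and cycloheximide was present during harvest and lysis. The first study held 18 ribo-seq libraries, 3 for each of the 3 treatments after 10 min and after 60 min. The second study held 4 ribo-seq and 4 mRNA-seq libraries from cells treated for 60 min with 1.5 μM or with vehicle, 2 for each treatment and assay. In ribo-seq, nuclease removes the mRNA that is not covered by ribosomes and the covered pieces (footprints) are sequenced, so every read places a ribosome on a codon. The libraries held from 6414227 to 22224137 reads on coding sequences (CDS). The Huh7 marker AFP was high in every ribo-seq library, between 8878 and 14910 counts per 1000000 reads (CPM). The endothelial marker PECAM1 lay between 11.5 and 26.7 CPM in these libraries, and its part in the results was not tested.

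SUMF1 encodes the formylglycine-generating enzyme of the endoplasmic reticulum (ER), which oxidizes a cysteine in the active site of newly made sulfatases and so makes them catalytically competent. Inherited loss of SUMF1 causes multiple sulfatase deficiency. SUMF2 is its paralog, which lacks this activity, resides in the ER as well and can bind SUMF1 and sulfatases. Both proteins enter the secretory pathway through an N-terminal signal peptide, a hydrophobic stretch that emerges from the ribosome early in translation.

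SUMF1 lies on the minus strand of chromosome 3 (GRCh38, 4361146 to 4467269) and SUMF2 on the plus strand of chromosome 7 (56064286 to 56080670), and both transcripts have 9 exons in GENCODE release 44. The CDS of SUMF1 held 375 codons, stop codon included, in the deposited counts and in GENCODE. The deposited SUMF2 CDS held 321 codons and GENCODE gives 302. Its codons were placed by assuming the same stop codon, which puts the 19 additional codons before the GENCODE start. In the genome an in-frame ATG lies 57 bases upstream of that start, but this position is before the first base of the GENCODE transcript, so the deposited start is an inference. The sequences from the GENCODE start codons are shown because the codons that gained footprints lie in them. The capitals mark the 5-codon windows described below.

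SUMF1 codons 1 to 45, chr3:4467111-4467245, minus strand, exon 1: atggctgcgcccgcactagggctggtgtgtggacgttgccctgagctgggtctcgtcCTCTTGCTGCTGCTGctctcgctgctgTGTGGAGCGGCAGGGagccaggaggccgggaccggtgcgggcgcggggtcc

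SUMF2 deposited codons 20 to 75, chr7:56064312-56068582, plus strand, exons 1 and 2 joined: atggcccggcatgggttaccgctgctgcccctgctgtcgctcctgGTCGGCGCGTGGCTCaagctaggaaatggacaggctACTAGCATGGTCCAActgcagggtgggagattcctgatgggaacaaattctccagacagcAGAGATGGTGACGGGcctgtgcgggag

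Both starts were rich in leucine codons. Among codons 2 to 30 from the GENCODE start, SUMF1 held 12 leucine codons and SUMF2 held 9, where the median of 9649 transcripts was 3. As many or more were found in 0.311% of the transcripts for SUMF1 and in 2.77% for SUMF2. The leucine codon CTG occurred 7 times in SUMF1 and 5 times in SUMF2 (median of all transcripts 1), counts that 1.51% and 5.82% of the transcripts reached. The GC content of the same codons was 65.5% in SUMF1 and 64.4% in SUMF2, close to the median of 59.8%. Although the proteins are paralogs, the longest run of bases that the CDS regions shared was 15. The GENCODE CDS of each, with the 14 bases before it, was searched for runs of 28 bases. None recurred exactly in the other or in any of the 11270 transcripts with a sequence. Matches with mismatches, and deposited transcripts without a sequence, were not searched.

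Footprints on SUMF2 began at the GENCODE start rather than at the deposited one. Over the 22 ribo-seq libraries, 4 of 11642 SUMF2 footprints (0.0344%, exact 95% binomial interval 0.00936 to 0.0880) fell on deposited codons 1 to 19, which make up 5.92% of its CDS. The next 19 codons held 623 footprints. In the 4 mRNA-seq libraries codons 1 to 19 held 86 of 5428 reads (1.58%, interval 1.27 to 1.95), so part of the mRNA reached into that segment. SUMF1, whose start is the same in both annotations, had 129 of 6155 footprints on its codons 1 to 19 (2.10%, interval 1.75 to 2.49). Intervals here cover counting error only. SUMF2 codons are numbered below as deposited, and subtracting 19 gives the position from the GENCODE start.

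**Figure D1:**
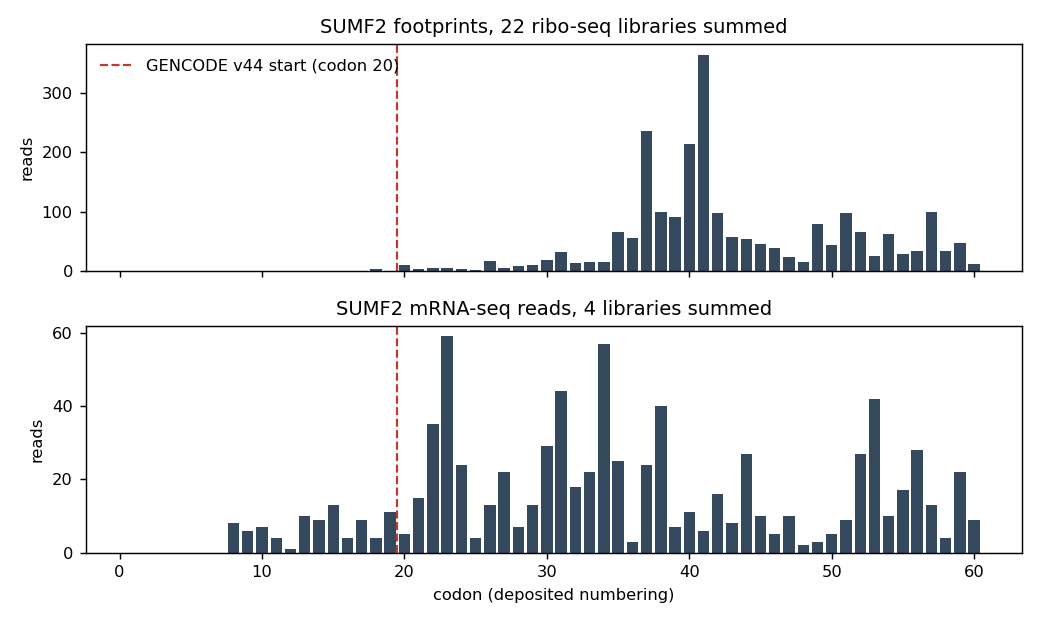
SUMF2 reads at deposited codons 1 to 60, summed over 22 ribo-seq libraries (top) and 4 mRNA-seq libraries (bottom), with the GENCODE start codon at the dashed line. The first 19 codons held 4 footprints and 86 mRNA-seq reads.

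With vehicle, SUMF2 carried more footprints per codon than SUMF1. Levels are given as reads per 1000 codons per 1000000 CDS reads, with the SD over 3 libraries at each time of the first study and over 2 libraries of the second. SUMF2 reads were divided by all 321 deposited codons, including the 19 before the GENCODE start, which held almost no footprints. Its footprint levels per codon, percentiles and ratios to SUMF1 are therefore somewhat understated. For SUMF1 the 10 min libraries gave 66.8 ± 11.6, the 60 min libraries 72.4 ± 8.60 and those of the second study 72.2 ± 4.95. The SUMF2 level was 165 ± 0.725, 141 ± 12.6 and 203 ± 5.55 in the same order. The SUMF2 to SUMF1 ratio was 2.51 ± 0.402, 1.95 ± 0.0690 and 2.82 ± 0.117, so SUMF2 was the higher one throughout. These levels put SUMF1 between the 57.3 and 60.9 percentiles of the transcripts with reads and SUMF2 between the 74.6 and 79.5 percentiles. In mRNA-seq with vehicle the level was 86.4 ± 20.8 for SUMF1 and 232 ± 5.12 for SUMF2, a ratio of 2.77 ± 0.727 (SD, n = 2). The vehicle levels of footprints per mRNA read were near each other, at 0.868 ± 0.267 for SUMF1 and 0.878 ± 0.00500 for SUMF2.

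With 1.5 μM, SUMF1 footprints gathered within its first 33 codons. The largest rise in RPM (reads at a codon per 1000000 CDS reads) after 60 min was at codon 22, so the window of codons 20 to 24 (chr3:4467174-4467188, exon 1) was followed in the other groups. These are the capitals CTCTTGCTGCTGCTG above, a run of leucine codons. With vehicle after 10 min, 3, 5 and 6 footprints fell in the window, which were 0.752%, 1.82% and 2.35% of the SUMF1 footprints of each library. With 1.5 μM after 10 min, 29, 38 and 37 footprints made up 22%, 21% and 18.7%. With 0.3 μM after 10 min the shares were 5.26%, 9.30% and 4.76%. The 3 treatments did not overlap, and their means rose from 1.64% ± 0.816 with vehicle to 6.44% ± 2.49 with 0.3 μM and 20.6% ± 1.69 with 1.5 μM (SD, n = 3). Each of the 3 differences had p = 0.1 in a two-sided exact permutation test, the smallest p that 3 libraries against 3 allow. This test did not use the replicate numbers, which pair 0.3 μM with vehicle and with 1.5 μM.

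The window shares of SUMF1 in the second study were 7.97% and 9.29% with 1.5 μM and 1.79% and 2.62% with vehicle, so the groups lay apart (exact permutation test, p = 0.333, the smallest for 2 against 2). In the mRNA-seq libraries the same codons held 13 and 9 reads with 1.5 μM (2.33% and 1.88%) and 5 and 7 reads with vehicle (1.04% and 0.837%), low shares that also lay apart. After 60 min in the first study the shares were 13.6%, 26.4% and 15.8% with 1.5 μM and 7.27%, 3.11% and 0.965% with vehicle. With 0.3 μM after 60 min they were 4.93%, 5.80% and 13.1%, which overlapped with vehicle (exact permutation test, p = 0.3). That comparison shares its vehicle libraries with the contrast that chose the genes.

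A second cluster of SUMF1 footprints, chosen after the values were seen, lay on codons 29 to 33 (chr3:4467147-4467161, exon 1). After 10 min it held 13.6%, 7.73% and 14.1% of the SUMF1 footprints with 1.5 μM and 0.251%, 1.09% and 2.35% with vehicle, and 0.3 μM gave a mean of 3.66% ± 1.78 (SD, n = 3). In the second study it exceeded the first cluster, with 11.6% and 13.9% of the footprints at 1.5 μM. The vehicle libraries of that study had 1.03% and 0 of 229 footprints, which allows a share of up to 1.31%. Within it codon 32 had 35 footprints with 1.5 μM and 0 with vehicle in the second study, and its density with 1.5 μM was 1.37 ± 0.376 RPM. The density at codon 22 in the same libraries was 1.02 ± 0.185 RPM with 1.5 μM and 0.278 ± 0.0842 RPM with vehicle (SD, n = 2). The order of the clusters thus differed between the studies, since after 60 min in the first one codons 20 to 24 held 18.6% ± 6.85 and codons 29 to 33 held 8.43% ± 5.96 at 1.5 μM (SD, n = 3). Whether this order differed beyond the spread was not tested.

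**Figure D2:**
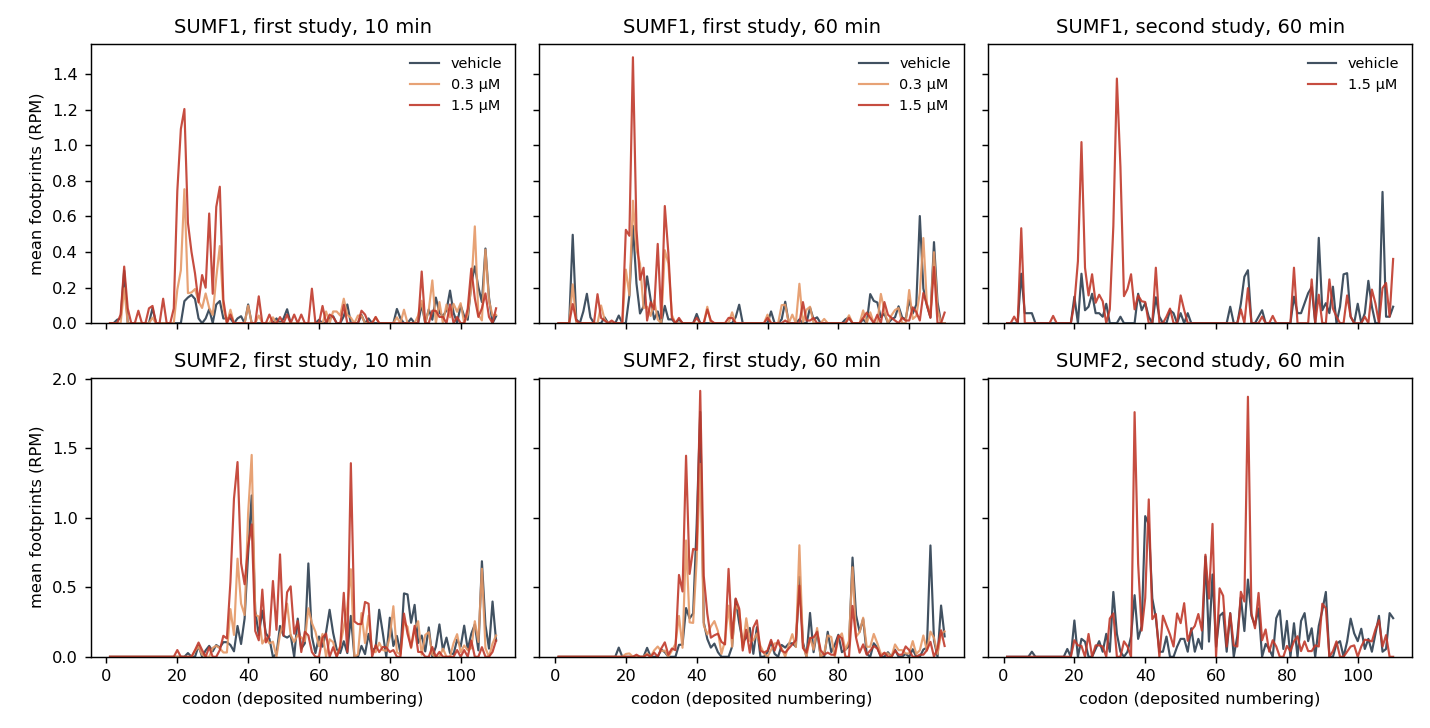
Mean footprint density in RPM at codons 1 to 110 of SUMF1 (top) and SUMF2 (bottom) after 10 min and 60 min in the first study (n = 3) and in the second study (n = 2), with vehicle dark, 0.3 μM orange and 1.5 μM red. At 1.5 μM SUMF1 rose at codons 20 to 33 and SUMF2 at codons 35 to 39, next to a SUMF2 peak at codon 41 that was also present with vehicle.

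SUMF2 footprints rose with 1.5 μM at several places in exons 1 and 2. The largest rise after 60 min at 1.5 μM was at codon 37, or codon 18 from the GENCODE start, and the window of codons 35 to 39 (chr7:56064357-56064371, exon 1) is the first stretch of capitals in its sequence. After 10 min with vehicle 15, 7 and 6 footprints gave shares of 1.66%, 1.06% and 1.34% of the SUMF2 footprints. With 1.5 μM, 31, 39 and 41 footprints gave 14.2%, 13.0% and 13.0%, and with 0.3 μM the shares were 4.72%, 5.39% and 2.76%. The treatments again did not overlap, with means of 1.35% ± 0.299, 4.29% ± 1.37 and 13.4% ± 0.713 for vehicle, 0.3 μM and 1.5 μM (SD, n = 3). Each difference had p = 0.1 in the exact permutation test. In the second study the shares were 6.28% and 5.17% with 1.5 μM and 1.75% and 1.23% with vehicle (two-sided exact permutation test, p = 0.333). The mRNA-seq shares were 1.96% ± 0.0959 and 1.77% ± 0.838, respectively. After 60 min in the first study they were 8.57%, 19.2% and 11% with 1.5 μM and 2.93%, 2.10% and 2.39% with vehicle, while 0.3 μM gave 2.28%, 4.72% and 5.25% (exact permutation test, p = 0.3).

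The SUMF2 window lay just before a peak that was present with vehicle as well. Codon 41 had the most footprints of any SUMF2 codon over the 22 ribo-seq libraries and was named after that was seen. Its density was 1.16 ± 0.159 RPM with vehicle, 1.45 ± 0.574 RPM with 0.3 μM and 0.953 ± 0.485 RPM with 1.5 μM after 10 min (SD, n = 3). In the second study it was 0.953 ± 0.711 RPM with vehicle and 1.13 ± 0.138 RPM with 1.5 μM (SD, n = 2). At codon 37 the density was 0.222 ± 0.137 RPM with vehicle and 1.4 ± 0.566 RPM with 1.5 μM after 10 min, and 0.443 ± 0.00940 and 1.76 ± 0.295 RPM in the second study.

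Further SUMF2 windows, chosen after their values were seen, were in exon 2. Codons 47 to 51 (chr7:56068496-56068510) held 9.63%, 4.65% and 5.40% of the footprints with 1.5 μM after 10 min and 0.993%, 0.906% and 1.11% with vehicle. The libraries of the second study gave 2.87% and 2.13% against 0.656% and 0.351%. Codons 67 to 71 (chr7:56068556-56068570) held 4.59%, 13.0% and 5.08% with 1.5 μM after 10 min and 0.662%, 0.906% and 0.891% with vehicle. This window in the second study held 8.26% and 5.62% with 1.5 μM and 1.86% and 3.34% with vehicle. After 60 min in the first study it held 2.67% ± 1.00 with 1.5 μM and 1.92% ± 0.900 with vehicle (SD, n = 3), a difference within the spread. In mRNA-seq it held 1.39% ± 0.771 with 1.5 μM and 2.31% ± 0.859 with vehicle.

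To place the boundary between the gain and the loss of footprints, the cumulative fraction of reads along each CDS was compared between groups pooled over replicates. Dmax is the largest excess of the treated curve over the control curve, and its Z-score is Dmax over the root mean square of Dmax in the bin of transcripts with similar read numbers. After 60 min at 1.5 μM, Dmax was 0.209 at codon 50 for SUMF1 (Z-score 3.26) and 0.243 at codon 81 for SUMF2 (Z-score 4.64). With 1 library left out, SUMF1 ran from 0.158 (Z-score 2.16, rank 205) without 1.5 μM replicate 3 to 0.311 (Z-score 4.17) without 1.5 μM replicate 1, with the codon of Dmax between 60 and 161. For SUMF2 it ran from 0.218 to 0.279, between codons 81 and 137. Counted instead in SDs above the mean of the bin, the wording of the study's methods, the Z-scores were larger, at 4.32 and 7.02 here and up to 7.05 (SUMF1 in the second study). Each stayed on its side of 2 in all 6 comparisons, though SUMF1 with 0.3 μM after 10 min came to 1.999. A Z-score of at least 2 was reached by 305 of 11442 transcripts, or 2.67%, in that contrast. The reads up to codons 50 and 81 are called 5ʹ reads below, and the later ones 3ʹ reads. Codon 81 is codon 62 from the GENCODE start and lies in exon 2.

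After 10 min at 1.5 μM the curves parted further, with a Dmax of 0.393 at codon 90 for SUMF1 (Z-score 4.55, rank 8 of 11422 transcripts) and of 0.313 at codon 74 for SUMF2 (Z-score 3.88, rank 19). Both passed a Z-score of 2, as 3.48% of all transcripts did. After 60 min SUMF1 had a Z-score of 3.26 (rank 31 of 11442) and SUMF2 of 4.64 (rank 11). Relative to other transcripts, SUMF1 thus stood out more after 10 min and SUMF2 less. Between 1.5 μM and 0.3 μM after 10 min Dmax was 0.296 for SUMF1 (Z-score 3.92, rank 6) and 0.196 for SUMF2 (Z-score 2.92, rank 39), with 3.06% of transcripts past the minimum. The second study gave 0.265 at codon 51 for SUMF1 (Z-score 4.57, rank 14 of 11405) and 0.183 at codon 76 for SUMF2 (Z-score 3.92, rank 20), with 2.38% of transcripts past it. The single-library pairs bear on the spread. For SUMF1 the 9 pairs of a 1.5 μM and a vehicle library after 10 min had Dmax values from 0.321 to 0.531, above the highest value among vehicle pairs of that time, 0.112. For SUMF2 the ranges were 0.261 to 0.373 against at most 0.145. After 60 min in the first study the SUMF2 pairs of 1.5 μM and vehicle ran from 0.148 to 0.327 and overlapped with vehicle pairs, which reached 0.225. Those of SUMF1 ran from 0.135 to 0.350, against at most 0.124.

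At 0.3 μM the divergence was small. After 10 min Dmax was 0.107 for SUMF1 (Z-score 1.89) and 0.121 for SUMF2 (Z-score 2.51), where 3.56% of all transcripts had a Z-score of at least 2. The SUMF2 value rested on 1 library, since its Z-score was 0.952 without 0.3 μM replicate 2. For SUMF1 the Z-score rose to 2.46 without 0.3 μM replicate 2, 2.19 without vehicle replicate 2 and 2.07 without vehicle replicate 3. After 60 min the values were 0.0832 (Z-score 1.82) and 0.0857 (Z-score 2.29), with 2.37% of transcripts past the minimum, and for SUMF2 the Z-score was 1.38 without 0.3 μM replicate 2, 1.33 without vehicle replicate 2 and 1.98 without vehicle replicate 3. The SUMF1 Z-score after 60 min was 1.07 without 0.3 μM replicate 3. The vehicle libraries after 60 min are also those of the contrast that chose the genes.

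The share of 5ʹ reads followed the dose after 10 min. For SUMF1 it was 4.01%, 7.66% and 7.84% with vehicle, 14.2%, 14.9% and 14.8% with 0.3 μM, and 48.5%, 39.2% and 41.4% with 1.5 μM. No library of SUMF1 overlapped with another dose. For SUMF2 the shares were 17.9%, 18.3% and 14.9%, then 20.6%, 36.9% and 21.2%, then 50.9%, 49.5% and 43.8%, also without overlap, although 0.3 μM replicate 2 stood far above its group. SUMF1 in the second study had 32.6% and 36.4% with 1.5 μM against 7.95% and 8.73% with vehicle. SUMF2 had 35.7% and 35.9% against 18.3% and 18.6%. In mRNA-seq the shares were 11.1% and 14.4% with 1.5 μM against 11.8% and 11.5% with vehicle for SUMF1, and 18.8% and 23.3% against 22.1% and 23.2% for SUMF2, so the treatments overlapped.

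After 60 min in the first study, the contrast that chose the genes, the 5ʹ shares of SUMF1 were 20.5%, 37.2% and 41.2% with 1.5 μM and 13.9%, 8.55% and 7.07% with vehicle. Those of SUMF2 were 37.8%, 44.4% and 45.4% against 23.4%, 14.1% and 17.9%. With 0.3 μM SUMF1 had 9.51%, 14.8% and 20.8%, and SUMF2 had 18.7%, 29.8% and 23.3%, and both overlapped with vehicle.

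**Figure D3:**
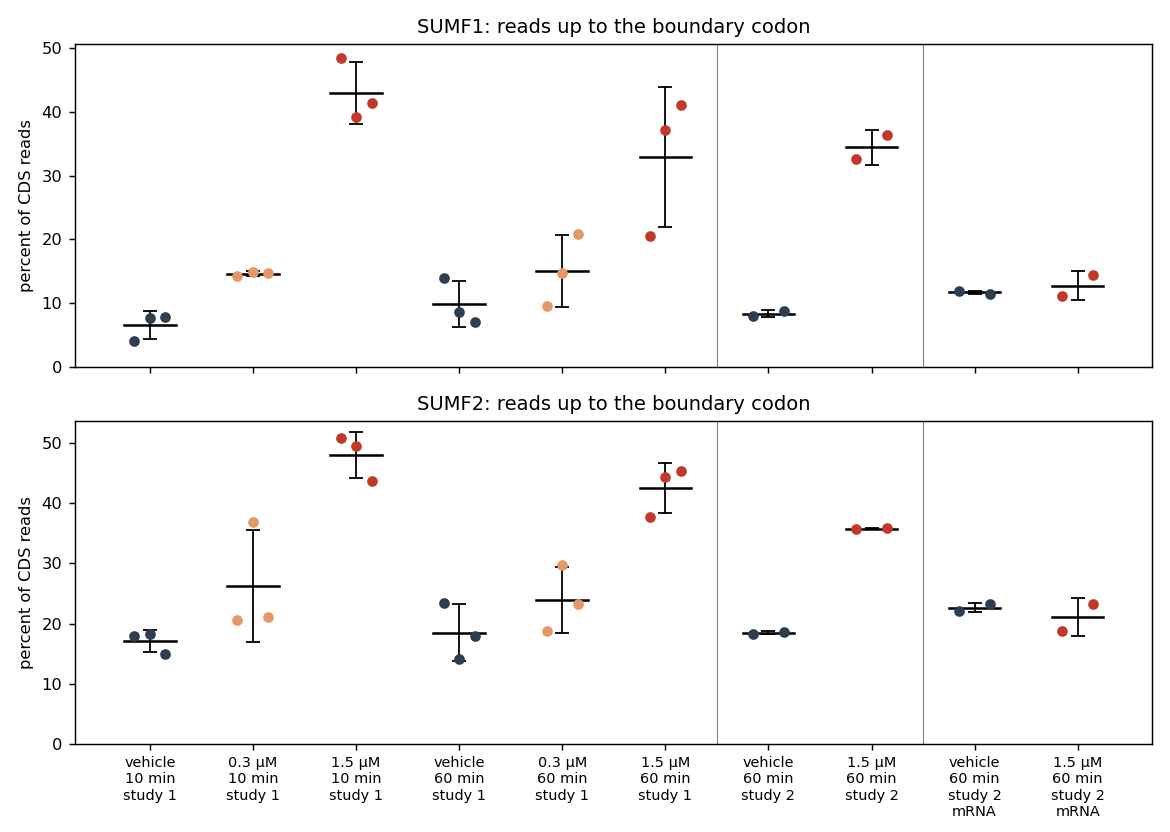
Percent of the CDS reads of SUMF1 (top) and SUMF2 (bottom) on or before the boundary codon (50 and 81) in each library, with the mean (line) and SD (bar) of each group. With 1.5 μM every ribo-seq library lay between 20.5% and 50.9%, above its vehicle libraries, and the mRNA-seq libraries of both treatments overlapped.

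The ratio of 5ʹ to 3ʹ reads was tested across all transcripts with edgeR's quasi-likelihood test, as the interaction of region and treatment, with Benjamini-Hochberg adjustment and a false discovery rate (FDR) of 0.1. After 10 min the log2 ratio was higher with 1.5 μM than with vehicle by 3.48 for SUMF1 (SE 0.35, edgeR adjusted p = 1.31e-07) and by 2.16 for SUMF2 (SE 0.26, edgeR adjusted p = 3.29e-06). The background was wide in this comparison. Of 10804 transcripts, 989 (9.15%) passed as higher and 59 as lower, and the median of all was a log2 of 0.267. With TMM factors computed for each region, which centre the ratio on that of most transcripts, 302 transcripts were higher and 178 lower, and SUMF1 and SUMF2 stayed higher by 3.21 (SE 0.34, edgeR adjusted p = 9.76e-08) and 1.89 (SE 0.24, edgeR adjusted p = 4.49e-06). By p-value SUMF1 ranked 12 and SUMF2 ranked 21 among all transcripts before centring.

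For the second study the log2 ratio was higher with 1.5 μM by 2.54 for SUMF1 (SE 0.36, edgeR adjusted p = 1.26e-09) and by 1.30 for SUMF2 (SE 0.25, edgeR adjusted p = 4.86e-05). There 67 of 10978 transcripts (0.61%) passed as higher, with a median of all of 0.0466. With the boundary set at codon 50 for every transcript, SUMF2 fell short, with a log2 of 0.96 and edgeR adjusted p = 0.113.

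Between the doses after 10 min, 1.5 μM had the higher log2 ratio by 2.13 for SUMF1 (SE 0.35, edgeR adjusted p = 0.018) and by 1.39 for SUMF2 (SE 0.34, edgeR adjusted p = 0.192), where 15 of 10782 transcripts (0.139%) passed as higher and the median of all was 0.256. The replicate numbers pair these libraries, and with the number as a block SUMF2 passed as well (1.41, edgeR adjusted p = 0.0215). In that fit 155 transcripts (1.44%) passed, all higher. Centred on most transcripts, the differences were 1.87 (edgeR adjusted p = 0.0347) and 1.13 (edgeR adjusted p = 0.674). The SUMF1 call needed all 3 libraries with 1.5 μM and 0.3 μM replicate 3, without each of which the edgeR adjusted p lay between 0.113 and 0.229. The SUMF2 difference passed without 0.3 μM replicate 2 (1.80, edgeR adjusted p = 0.000695).

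Against vehicle, 0.3 μM did not move the ratio past the threshold. After 10 min it was higher by 1.35 for SUMF1 (SE 0.39) and 0.77 for SUMF2 (SE 0.34), and after 60 min by 0.75 (SE 0.39) and 0.51 (SE 0.31), all with an edgeR adjusted p of 1.00. Single libraries carried part of these values. The SUMF2 value after 10 min was 0.36 without 0.3 μM replicate 2, and after 60 min it was 0.27 without 0.3 μM replicate 2 and 0.28 without vehicle replicate 2. The SUMF1 value after 60 min was 0.42 without 0.3 μM replicate 3. The comparison after 60 min shares its vehicle libraries with the contrast that chose the genes and set the boundary codons. Few transcripts passed at this dose, 4 of 10885 (0.0367%) after 10 min and 6 of 10887 (0.0551%) after 60 min, each of them higher. After 60 min at 1.5 μM in the first study the ratio was higher by 2.17 for SUMF1 (SE 0.43) and 1.74 for SUMF2 (SE 0.32). Of 10758 transcripts, 44 (0.409%) passed as higher and 1 as lower. With the replicate block, which pairs these libraries, 123 passed as higher and 25 as lower. The boundary codons of 305 transcripts, both genes among them, were set in these same libraries, so these counts are a description and not a test.

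The counterpart of the gain near the start was a loss of 3ʹ reads. After 10 min the 3ʹ level of SUMF1 was 21.3, 19 and 27.2 CPM with vehicle and 9.80, 11.2 and 12.1 CPM with 1.5 μM, without overlap. It fell by 0.98 on the log2 scale (SE 0.17, edgeR adjusted p = 0.0143), to 0.508 times the vehicle level. The 3ʹ level of SUMF2 was 41.3, 40.6 and 44.1 CPM with vehicle and 15.4, 15.5 and 18.5 CPM with 1.5 μM. It fell by 1.31 (SE 0.13, edgeR adjusted p = 0.000116), to 0.402 times the vehicle level. Of 10738 transcripts, 129 (1.2%) passed as lower and 54 as higher. With the replicate number as a block, 583 (5.43%) passed as lower and 560 as higher. The SUMF1 call was lost without 1.5 μM replicate 1 (edgeR adjusted p = 0.118) or replicate 2 (edgeR adjusted p = 0.124). The log2 differences without them were -0.91 and -0.99.

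For the second study the 3ʹ level of SUMF1 was 26.1 and 23.7 CPM with vehicle and 16.6 and 13.2 CPM with 1.5 μM, a fall of 0.74 (SE 0.14, edgeR adjusted p = 0.0745). SUMF2 had 54.3 and 52.4 CPM with vehicle and 29.2 and 31.2 CPM with 1.5 μM, and fell by 0.81 (SE 0.10, edgeR adjusted p = 0.00237). Of 10988 transcripts, 38 (0.346%) passed as lower. The SUMF1 fall did not pass without vehicle replicate 4 (-0.68, edgeR adjusted p = 0.233) or when the reads were counted from codon 101 (-0.71, edgeR adjusted p = 0.149).

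With 0.3 μM after 10 min the 3ʹ levels were 15.3, 22.2 and 22.9 CPM for SUMF1, within the range of vehicle but for 1 library, and 38, 24.6 and 32.9 CPM for SUMF2, below every vehicle library. The log2 differences from vehicle were -0.14 (SE 0.19) and -0.41 (SE 0.15), both with an edgeR adjusted p of 0.999. The SUMF1 difference changed sign without 0.3 μM replicate 1 (0.026) and without vehicle replicate 3 (0.014), and the SUMF2 difference was -0.24 without 0.3 μM replicate 2. No transcript passed in this comparison in edgeR's quasi-likelihood test (0%), although 108 of 10852 had an unadjusted p under 0.05 and DESeq2 called 4. Between the doses after 10 min the log2 difference of 1.5 μM from 0.3 μM was -0.83 for SUMF1 (SE 0.19, edgeR adjusted p = 0.218) and -0.90 for SUMF2 (SE 0.17, edgeR adjusted p = 0.117), where 7 of 10734 transcripts (0.0652%) passed as lower. With the replicate number as a block, both passed as lower by 0.83 (edgeR adjusted p = 0.0284) and 0.89 (edgeR adjusted p = 0.0131). In that fit 87 transcripts (0.811%) passed as lower and 106 as higher.

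After 60 min with 0.3 μM the 3ʹ levels were 18.6, 20.2 and 20.9 CPM for SUMF1, below the vehicle values of 22.1, 23.7 and 29.5 CPM. For SUMF2 they were 33.5, 29.8 and 33 CPM, which overlapped with 32.5, 38.6 and 42.1 CPM for vehicle. The vehicle libraries are those of the contrast that chose the genes and set the boundary codons. Neither this comparison nor that between the times is thus independent of the choice. The log2 differences were -0.34 (SE 0.15) and -0.24 (SE 0.13), with edgeR adjusted p = 1.00, and -0.21 and -0.15 without vehicle replicate 3. No transcript passed in edgeR's quasi-likelihood test (0%), 115 of 10865 had an unadjusted p under 0.05, DESeq2 called 0 and edgeR with the replicate block, which pairs these libraries, called 6. The difference of the 0.3 μM effect between the times was -0.20 for SUMF1 (SE 0.25) and 0.17 for SUMF2 (SE 0.20) on the log2 scale, with edgeR adjusted p = 1.00 and no transcript called (0 of 11013 in edgeR's quasi-likelihood test, 180 at an unadjusted p under 0.05, 0 in DESeq2). Leaving out 1 library moved it between -0.37 (without 0.3 μM 10 min replicate 1) and -0.066 (without vehicle 60 min replicate 3) for SUMF1, and between 0.0064 and 0.30 for SUMF2 (without 0.3 μM 10 min replicate 2 and replicate 1). With 1.5 μM after 60 min in the first study the 3ʹ levels were 12.5, 11.4 and 12 CPM for SUMF1 and 15.9, 16.6 and 20.6 CPM for SUMF2. Their log2 differences from vehicle were -1.06 (SE 0.17) and -1.09 (SE 0.16), beside 24 of 10703 transcripts (0.224%) past the threshold, all lower. The replicate numbers pair these libraries too, and with the number as a block 69 transcripts passed as lower and 26 as higher. Since these libraries also set the boundary codons of 305 transcripts, both genes among them, the counts are a description and not a test.

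**Figure D4:**
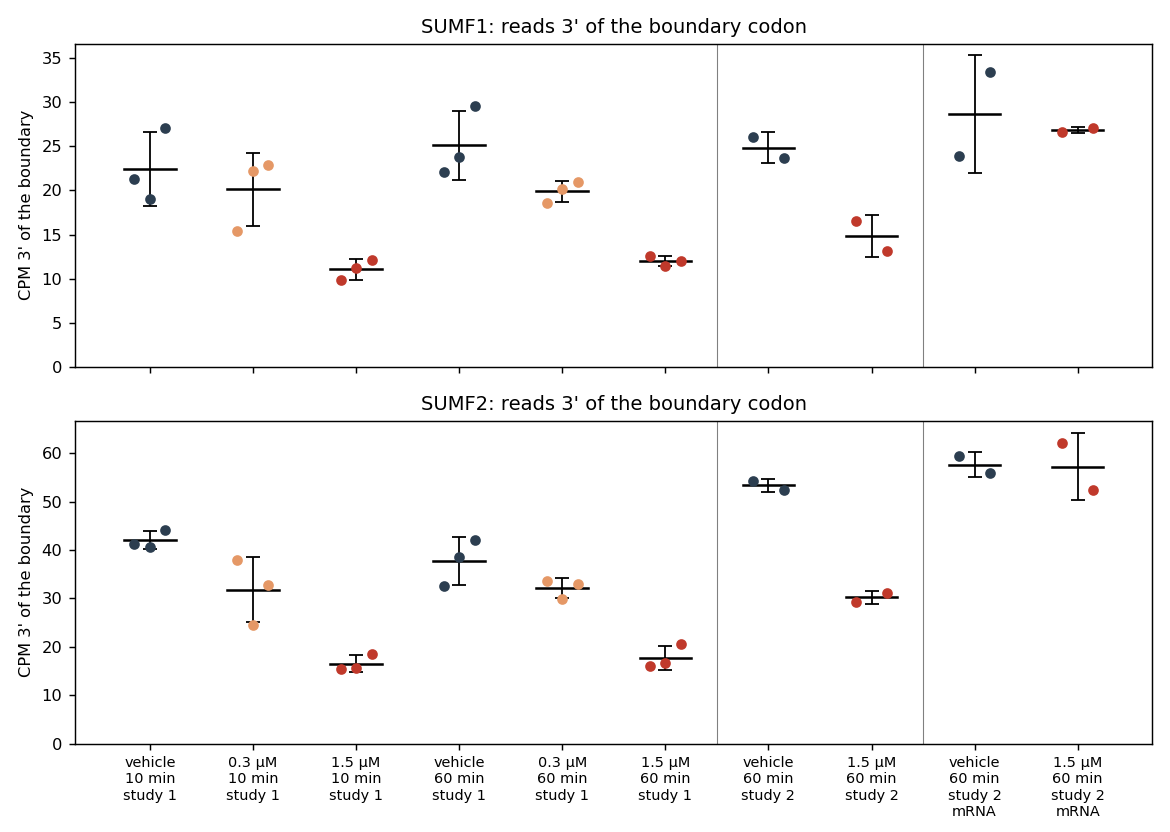
TMM-normalized reads 3ʹ of the boundary codon of SUMF1 (top) and SUMF2 (bottom) in CPM for each library, with the mean (line) and SD (bar) of each group. With 1.5 μM every ribo-seq library lay below its vehicle libraries, at 9.80 to 16.6 CPM for SUMF1 and 15.4 to 31.2 CPM for SUMF2.

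The loss extended along the rest of each CDS. After 10 min with 1.5 μM, SUMF1 codons 51 to 150, 151 to 250 and 251 to 375 held 58.2%, 51% and 43.5% of the vehicle level, and codons 1 to 50 held 524%. SUMF2 codons 82 to 150, 151 to 250 and 251 to 321 held 27.1%, 40.8% and 46.1%, and codons 1 to 81 held 177%. The SUMF1 segments in the second study after the boundary held 63.7%, 59.3% and 57.4% of vehicle, and those of SUMF2 61.7%, 54.9% and 54.8%. The center of density, the mean codon position of the footprints, moved with it. For SUMF1 it was 217 ± 5.62 with vehicle, 196 ± 8.48 with 0.3 μM and 136 ± 12.6 with 1.5 μM after 10 min (SD, n = 3), with p = 0.1 for each pair of treatments in the exact permutation test. For SUMF2 it was 185 ± 11, 168 ± 16.8 and 137 ± 9.07, and 0.3 μM overlapped with vehicle (exact permutation test, p = 0.2). That test ignores the replicate numbers. By number, the SUMF2 center was lower with 0.3 μM in each pair, at 174, 149 and 181 against 183, 175 and 196 with vehicle. The center of SUMF1 in the second study was at codon 203 ± 12.1 with vehicle and 152 ± 11.3 with 1.5 μM, and that of SUMF2 at 184 ± 5.64 and 154 ± 1.97 (SD, n = 2). With the first 50 codons left out, the shift after 10 min at 1.5 μM was -10.9 codons for SUMF1 and -21.5 for SUMF2, where the whole CDS gave -81.5 and -47.5.

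Over the whole CDS the differences were smaller. Summed over all codons, the SUMF1 log2 difference after 10 min at 1.5 μM was -0.30 and no longer passed (edgeR adjusted p = 0.320), while that of SUMF2 was -0.67 and still passed (edgeR adjusted p = 0.0201). In the second study the whole CDS gave -0.27 for SUMF1 and -0.48 for SUMF2, neither past the threshold (edgeR adjusted p = 1.00 and 0.117).

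**Figure D5:**
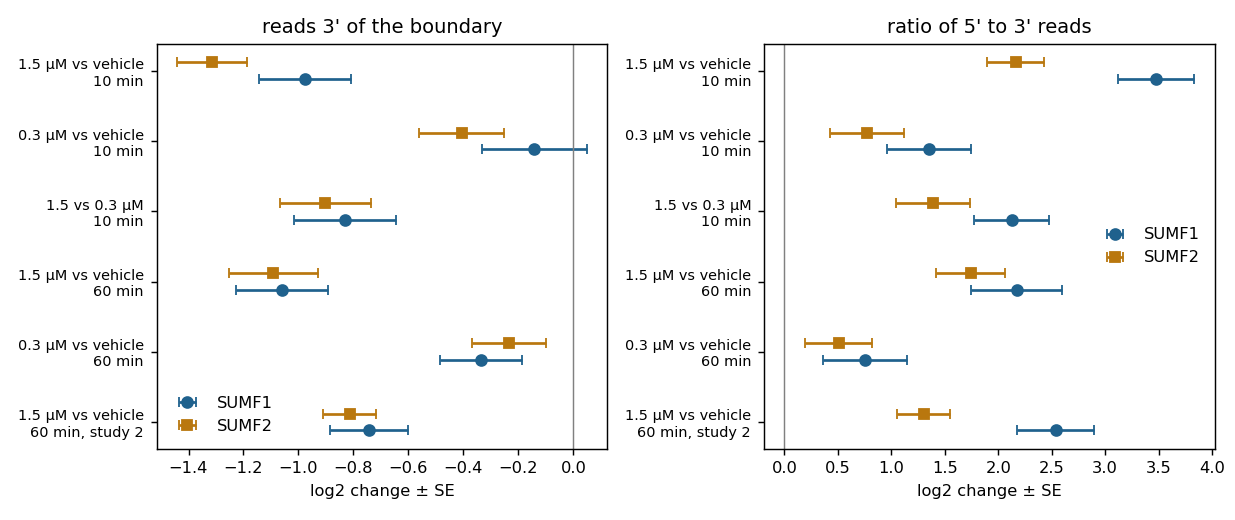
Log2 differences ± SE from edgeR in reads 3ʹ of the boundary (left) and in the ratio of 5ʹ to 3ʹ reads (right) for SUMF1 (circles) and SUMF2 (squares) in 6 comparisons of ribo-seq libraries. The 1.5 μM comparisons lie between -1.31 and -0.74 on the left, and every ratio on the right is above 0.

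The mRNA of both genes stayed near the vehicle level after 60 min. The 3ʹ mRNA reads of SUMF1 were 26.6 and 27.1 CPM with 1.5 μM and 24.0 and 33.4 CPM with vehicle. Those of SUMF2 were 62.2 and 52.4 CPM and 59.5 and 55.9 CPM, so the treatments overlapped for both. Over the whole CDS the log2 differences in mRNA were -0.08 for SUMF1 (SE 0.17) and -0.05 for SUMF2 (SE 0.11), with an edgeR adjusted p of 0.999. Neither direction was stable, since SUMF1 came to -0.30 without vehicle replicate 4 and 0.18 without vehicle replicate 5, and SUMF2 to 0.028 without 1.5 μM replicate 5. No transcript passed in edgeR's quasi-likelihood test (0%), 228 of 11812 had an unadjusted p under 0.05 and DESeq2 called 1.

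Translational efficiency (TE), the 3ʹ footprints over the 3ʹ mRNA reads of the same culture, was lower with 1.5 μM in both genes. For SUMF1 it was 0.622 and 0.486 with 1.5 μM and 1.09 and 0.709 with vehicle. For SUMF2 it was 0.470 and 0.596 with 1.5 μM and 0.913 and 0.939 with vehicle, so the treatments lay apart for both. In a model of assay and treatment over the 8 libraries the log2 difference was -0.63 for SUMF1 (SE 0.25, edgeR adjusted p = 1.00) and -0.79 for SUMF2 (SE 0.16, edgeR adjusted p = 0.186), while 15 of 11525 transcripts (0.13%) passed, all lower. With the culture as a block, which the shared samples of ribo-seq and mRNA-seq give, SUMF2 passed as lower by 0.79 (edgeR adjusted p = 0.0784) and SUMF1 did not (-0.66, edgeR adjusted p = 0.943). In that model 20 of 11525 transcripts (0.174%) passed, all lower. The SUMF1 value ran from -0.91 without mRNA vehicle replicate 5 to -0.40 without mRNA vehicle replicate 4. Over the whole CDS the TE differences were -0.19 and -0.43, neither past the threshold (edgeR adjusted p = 1.00). Without mRNA vehicle replicate 4 the SUMF2 difference in the model without a block was -0.83.

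The paralogs were also compared with each other. The log2 ratio of SUMF1 to SUMF2 3ʹ reads was higher with 1.5 μM than with vehicle after 10 min by 0.34 (exact permutation test, p = 0.1), and by 0.07 in the second study (exact permutation test, p = 1.00). Between the doses it changed by 0.08 (exact permutation test, p = 0.9), and 0.3 μM against vehicle gave 0.26 after 10 min (exact permutation test, p = 0.6) and -0.10 after 60 min (exact permutation test, p = 0.4). Single libraries carried these smaller values. The second study gave -0.14 without 1.5 μM replicate 4 and 0.28 without 1.5 μM replicate 5, and the doses differed by -0.24 without 0.3 μM replicate 1 and by 0.34 without 0.3 μM replicate 2. For 0.3 μM against vehicle after 10 min the value was 0.58 without 0.3 μM replicate 1 and 0.0028 without replicate 2, and after 60 min it was -0.019 without 0.3 μM replicate 1. With these numbers of libraries no difference between the paralogs could pass a threshold of 0.05 in the exact permutation test, and equal responses are not shown.

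Transcripts whose 5ʹ to 3ʹ balance varied most like that of the pair were named by the Pearson correlation of log2((5ʹ reads + 1)/(3ʹ reads + 1)) over the 22 ribo-seq libraries, for the 5832 transcripts that averaged 20 or more reads on each side. For SUMF1 these included TMED2 (r = 0.948), a cargo receptor of the early secretory pathway, and NUDT2 (r = 0.937), a nucleotide hydrolase. For SUMF2 they included the RNA-binding proteins PCBP2 (r = 0.930) and PCBP1 (r = 0.928). By the paper, their sequences are very alike and most reads cannot be assigned to one of them, so these values are not independent. SUMF2 ranked 13 for SUMF1 and SUMF1 ranked 5 for SUMF2, with r = 0.916. The 22 libraries include those of the contrast behind the choice and share treatment and depth, so these correlations describe the libraries only.

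The sulfatases on which SUMF1 acts did not pass the tests. Of 17 sulfatase genes, 9 had enough reads in each comparison of treatments in the first study, 10 in the comparison of times and 11 in those of the second study, and none passed in any comparison. Without a replicate block, at most 1.2% of all transcripts passed as lower in 3ʹ reads and at most 9.15% as higher in the ratio. A count of 0 among so few genes therefore does not set the sulfatases apart. After 10 min at 1.5 μM the log2 differences of their 3ʹ reads had a median of 0.21, beside 0.00 for all transcripts, and the highest was 0.48 for SGSH, the heparan N-sulfatase. Their median in the second study was 0.03. Of 3 ER proteins known to bind SUMF1, LMAN1, the cargo receptor ERGIC-53, had a higher 5ʹ to 3ʹ ratio after 10 min at 1.5 μM, by a log2 of 1.26 (SE 0.23, edgeR adjusted p = 0.00109), a comparison in which 9.15% of all transcripts passed as higher and the median of all was 0.267. In the other comparisons LMAN1 did not pass, with 0.03 in the second study. ERP44, a chaperone that retains clients in the ER, and P4HB, protein disulfide isomerase, passed in none.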

How the data were processed

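The authors deposited, for each library, counts of reads by codon of one transcript per gene, as raw counts that were not normalized. Per their methods and processing notes, reads were aligned with Bowtie 1.1.2 to Ensembl 78 transcripts (GRCh38), reads with up to 5 best sites were kept, and each was assigned to a codon with a P-site offset of 14 nt; kallisto 0.42.5 and DESeq also appear in the notes. mRNA-seq used poly-A RNA from the same lysates. The study's methods call the replicates biological, but the labels do not say that they were separate cultures, so p-values measure the spread between these samples.

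From the counts, RPM was computed per library on all CDS reads and CPM with TMM factors. Dmax needed 10 pooled reads, and Z-scores were taken in bins of 300 transcripts. The boundary was a transcript's own Dmax codon for the 305 transcripts with a Z-score of at least 2 after 60 min at 1.5 μM and codon 50 for all others. Tests were edgeR 4.0.16 quasi-likelihood fits in R 4.3.3 on the groups compared (Benjamini-Hochberg, FDR 0.1) across all transcripts, and two-sided exact permutation tests over libraries for single values, 10 for each of the window share and center of density. The permutation tests quoted did not use the replicate numbers as pairs. DESeq2 1.42.0 was an alternative. Python 3.11.15, numpy 2.4.6, pandas 2.3.3 and matplotlib 3.10.9 did the rest. The edgeR fits of 3ʹ reads and of the ratio were checked on simulated counts for 1.5 μM against vehicle after 10 min and in the second study. The TE fit was checked in the same way. The other fits and the permutation tests were not simulated.

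The replicate numbers pair the libraries of 0.3 μM against vehicle, of 1.5 μM against 0.3 μM and, after 60 min in the first study, of 1.5 μM against vehicle, since same-numbered libraries deviated together with correlations of 0.154 to 0.552 over 9719 transcripts. For 1.5 μM against vehicle after 10 min the correlations were 0.202, 0.237 and 0.0615. These libraries were not treated as paired, although 0.202 and 0.237 lie within that range. In addition, 5 of the 6 libraries deviated most like the library of their own number. The main fits held no replicate block in any comparison. Ribo-seq and mRNA-seq of one number came from the same sample by the study's methods (correlations 0.297 and 0.147). Names, positions and sequences are from GENCODE release 44 (GRCh38), which named 11270 of the 12325 transcripts. The genes, windows and lists (sulfatases, and ER proteins that bind SUMF1) were chosen with earlier results of these data known. All comparisons of 0.3 μM with vehicle after 60 min, and that between the times, used vehicle libraries of the contrast that chose the genes. The named transcripts are the 3 with the highest correlation to each gene. A gene that this rule names is not reported here. ARSF, ARSH, ARSI, SULF1 and SULF2, and the markers ALB, PTPRC, CD3E, COL1A1 and COL1A2, were not analysed here.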

Additional observations from a re-analysis of the deposited data

How the results depend on the processing

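Of 709 recalculations, 660 kept the direction and the side of the threshold (or moved by less than the replicate spread), 17 fell below it, 19 passed it, 7 values without a test moved and 6 changed sign. The cause of these changes was not tested unless stated. Outside the contrast that chose the genes, window shares, centers of density and paralog ratios could only keep or change their sign. No exact permutation test here could pass 0.05, so the 660 include values whose side of the threshold was fixed in advance. With the replicate number as a block, the differences between the doses after 10 min passed, with a log2 ratio of 1.41 for SUMF2 and 3ʹ reads of -0.83 for SUMF1 and -0.89 for SUMF2, and with the culture as a block so did the TE of SUMF2 (-0.79). The block changed no other call of either gene, including in the second study. There the 2 pairs share only a number, and 2 libraries in a group give 1 correlation (0.288), the same for both pairs. DESeq2 also called the dose difference in the SUMF2 ratio (1.41), its TE (-0.81) and the 3ʹ reads (-0.83 and -0.91), as did all 18 libraries in 1 fit (-0.84 and -0.91). For SUMF2 these reads also passed without the last 15 codons (-0.92) and without a filter (-0.91). DESeq2 gave no adjusted p for the SUMF1 ratio between doses. With the boundary at codon 50 the SUMF2 ratio of the second study was 0.96. Over the whole CDS, which adds the 5ʹ reads, 3ʹ differences at 1.5 μM became -0.30 for SUMF1 and -0.67 for SUMF2 (which still passed) after 10 min, -0.63 and -0.58 for SUMF1 and SUMF2 after 60 min, and -0.27 and -0.48 in the second study, where TE became -0.19 and -0.43. In the second study SUMF1 no longer passed from codon 101 (-0.71) or at an FDR of 0.05 (-0.74). At 60 min in the first study the window difference was 6.28 and 4.00 percentage points for the single codons of SUMF1 and SUMF2 and 14.9 for SUMF2 within 5 codons, and the center moved by -4.81 and -16.3 codons without the first 50. TMM factors for each region were added after seeing the data.

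Leaving out 1 library gave mRNA differences of -0.30 to 0.18 for SUMF1 (0.18 without vehicle replicate 5) and -0.13 to 0.028 for SUMF2 (0.028 without 1.5 μM replicate 5). The ratio between doses ran from 1.97 to 2.24 and from 1.16 to 1.80, the 3ʹ reads between doses from -0.99 to -0.73 and from -1.06 to -0.75 (SUMF1 passed without 0.3 μM replicate 1, SUMF2 without replicate 2), and the TE of SUMF2 from -0.91 to -0.67 (of SUMF1 from -0.91 to -0.40). The 3ʹ reads of SUMF1 ran from -1.07 to -0.82 at 1.5 μM after 10 min, from -0.92 to -0.59 in the second study, and from -0.25 to 0.026 at 0.3 μM after 10 min (0.026 without 0.3 μM replicate 1, 0.014 without vehicle replicate 3). The paralog log2 ratio ran from -0.24 (without 0.3 μM replicate 1) to 0.34 between doses and from -0.14 (without 1.5 μM replicate 4) to 0.28 in the second study. Dmax Z-scores at 0.3 μM ran from 1.4 to 2.46 for SUMF1 and 0.952 to 3.13 for SUMF2 after 10 min, and from 1.33 to 2.74 for SUMF2 after 60 min. Counts over all transcripts moved more. After 10 min at 1.5 μM, 183 transcripts passed for 3ʹ reads, 64 with all 18 libraries, 1143 with the replicate block, 27 without 1.5 μM replicate 2 and 1691 without vehicle replicate 3, and 1048 for the ratio, 348 without 1.5 μM replicate 2. Between doses 8 became 0 to 193 and 15 became 2 to 155 (142 without 0.3 μM replicate 2). In the second study 39 became 13 to 160 (160 without 1.5 μM replicate 5) and 68 became 24 to 66 (24 without vehicle replicate 4), and 15 for TE became 4 to 184 (184 without mRNA vehicle replicate 4). Library depth, with as few as 121 SUMF1 footprints, limits the shares of single windows.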
